A study of Mus musculus with 6 samples.

Results

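The 527 primer pairs described here join the outer ends of the mouse immunoglobulin heavy chain (Igh) locus, out of 12656 forward-reverse pairs that cover the locus. A pair was taken where the midpoint of 1 HindIII fragment lay in the 5′ flank beyond the V genes and that of the other on the constant side, by the positions in the primer names and by no measured value. The 5′ flank is covered by 17 fragments (8 with a forward and 9 with a reverse primer) between positions 117265258 and 117350186 of chromosome 12 (mm9). The constant side has 62 fragments: 16 in the 3′ flank (114339456 to 114420752), 8 in the 3′ regulatory region or 3′RR (114434637 to 114480873), 25 in the constant region (114486613 to 114656272) and 13 in the D-J region, which includes the intronic enhancer (114656273 to 114691293). The D-J region is a name for this stretch only. Its fragments numbered 76 to 80 lie on the constant-gene side of REV 81, the fragment placed at the intronic enhancer, and so away from the D and J segments. Fragment midpoints of a pair are 2577.78 to 3005.61 kb apart. No mm9 annotation was used, so region edges are approximate and no single gene is assigned to a fragment. For orientation, the protein-coding genes next to the locus in RefSeq's GRCm38.p6 table are Zfp386 and Vipr2 beyond the V end and Tmem121 and Tedc1 beyond the constant end.

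The study used 5C, in which primers anneal to the junctions of a ligated chromatin library, so that each count is the reads of a ligation product between 1 forward and 1 reverse fragment. Resting B cells were CD43-negative splenic B cells taken with magnetic beads. Pro-B cells were Rag2-deficient bone marrow cells expanded in culture with IL7. Mouse embryonic fibroblasts (MEF) came straight from culture, and each cell type had 2 libraries that the series text calls biological replicates. The resting B and pro-B cells differ in genotype, organ and culture as well as in stage, and these cannot be told apart. No transcript was measured, so the labelled cell types could not be checked against marker genes.

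In the germline locus the V genes lie on one side and the D, J and constant gene segments on the other, and V(D)J recombination joins them in B-lineage precursors, where the locus is known to fold into a more compact shape. The Rag2 protein is part of the recombinase, and cells without it keep germline alleles. Mature B cells carry rearranged alleles that have lost the DNA between the joined segments, so separations given here are those of the reference genome only. The intronic enhancer lies downstream of the J segments, ahead of the constant genes, and acts early in B-cell development. The 3′RR is a group of enhancers, with CTCF-binding sites beside it, downstream of the constant genes, known for its role in class switching and in antibody expression of mature B cells. The comparisons ask how contact between the outer ends of the locus differs between these stages and a cell type that does not use the locus.

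Valid read pairs per library numbered 20580457 to 24191175. The sum over the 527 end-to-end pairs was 106157 and 114380 reads for resting B, against 20649 and 70336 for pro-B and 74776 and 70246 in MEF. As a share of all Igh reads this was 0.557% and 0.603% in resting B libraries, 0.10% and 0.338% in pro-B libraries and 0.339% and 0.332% in MEF. The 95% Wilson interval was 0.600% to 0.607% for resting B replicate 2 and 0.0989% to 0.102% for pro-B replicate 1; it covers counting error only, since no molecular identifiers were used. Both resting B libraries were above both libraries of the other cell types, with a difference in mean share of 0.361 percentage points from pro-B cells and 0.245 from MEF. Both differences had p = 0.333 in an exact two-sided permutation test, which is the smallest p that 2 libraries against 2 allow. The pro-B minus MEF difference of -0.116 percentage points (exact p = 0.667) was 0.0030 without pro-B replicate 1. Pro-B replicate 2 stood apart from the other libraries, with 1641 Igh pairs at 0 reads against 376 to 622 elsewhere.

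A few pairs carried much of these sums, and by the median pair both pro-B libraries also lay below MEF. The median end-to-end pair had 116 and 120 reads in resting B libraries, 20 and 21 reads in pro-B libraries and 40 and 73 reads in MEF. The pro-B libraries, far apart in their sums, had nearly the same median, and by this median the 3 cell types did not overlap. The spread of the pro-B libraries was unlike, with quartiles of 9 and 41 reads in replicate 1 and 2 and 132 reads in replicate 2. The upper quartile was 77 and 134 reads in MEF, so by it pro-B replicate 2 lay within the range of MEF. Pairs at 0 reads numbered 2 and 5 in resting B libraries, 21 and 55 in pro-B libraries and 12 and 9 in MEF, and each such 0 allows up to 3 reads by counting error. Divided by the library's own median over all Igh pairs, the end-to-end median was 1.20 and 1.35 in resting B libraries, 0.339 and 0.219 in pro-B libraries and 0.645 and 0.702 in MEF. In the resting B libraries, and in none of the other 4, the typical pair across the whole locus was read more often than the typical Igh pair. Replicate libraries had a Pearson's r of 0.827 (resting B), 0.406 (pro-B) and 0.625 (MEF) across the log2 counts of the 527 pairs, which share fragments and are not independent. Between libraries of different cell types r ran from 0.375 to 0.641. Pro-B replicate 1 had 0.601 and 0.525 with the MEF libraries, and MEF replicate 1 had 0.626 and 0.641 with the resting B libraries. By Pearson's r only the resting B replicates were thus more alike than libraries of different cell types. By Spearman's rank correlation the MEF replicates (0.680) were so too, narrowly, as the highest value between cell types was 0.667. The pro-B replicates had 0.394.

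**Figure D1:**
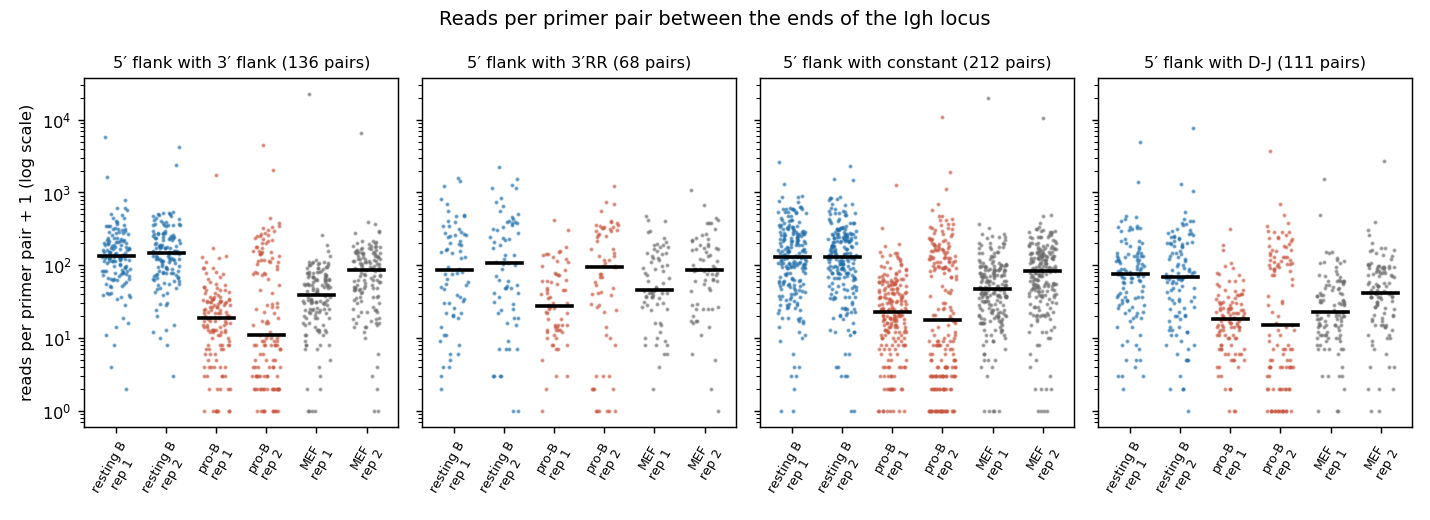
Reads plus 1 of every end-to-end primer pair on a log axis, by library, in 4 panels for the constant-side regions; each point is 1 pair and bars are medians. The resting B medians lie above the pro-B and MEF medians in the 3′ flank, constant and D-J panels, while in the 3′RR panel those of resting B replicate 1, pro-B replicate 2 and MEF replicate 2 lie close together; pro-B replicate 2 has many points at 0 and 1 reads beside a second group of points at higher counts.

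Contact frequency normally falls with separation, and in all 6 libraries the median of all Igh pairs fell up to 1200 kb. At larger separations it did not keep falling, and from the bin of 1600 to 2000 kb to that of 2000 to 2400 kb it went up in all 6 libraries. Between 1200 and 1600 kb it was 62 and 57 reads in resting B libraries, 34 and 57.5 in pro-B libraries and 36 and 59 in MEF. Between 2000 and 2400 kb it was 86 and 81.5 reads in resting B libraries, 32 and 49.5 in pro-B libraries and 39 and 61.5 in MEF, so that resting B cells stood above the others. Between 2400 and 2577.78 kb, just short of the end-to-end pairs, it was 63 and 66 reads in resting B libraries, 26 and 27 in pro-B libraries and 27 and 51 in MEF. In the last bin, from 2577.78 kb, where 527 of the 630 pairs are end-to-end pairs, it was 114 and 115 reads in resting B libraries, 21 and 24 in pro-B libraries and 38 and 70 in MEF. The last bin was thus above the bin before it in both resting B and both MEF libraries and below it in both pro-B libraries.

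**Figure D2:**
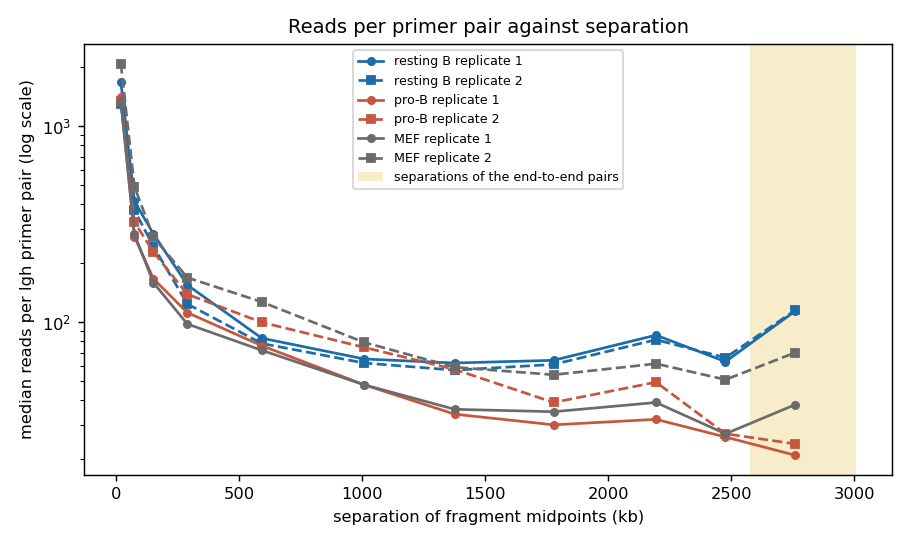
Median reads per Igh primer pair (log axis) against the separation of fragment midpoints in kb, 1 line per library; the shaded band marks the separations of the end-to-end pairs. The resting B lines stand at 114 and 115 reads in the band, the pro-B lines at 21 and 24 and the MEF lines at 38 and 70.

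Seen from the 5′ flank, the median pair in resting B cells had more reads with the constant side than with the V genes in between. Sums gave another order for the proximal V genes, as described further on. The median pair of a 5′ flank fragment in resting B cells had 116 and 120 reads with the constant side, against 35 and 39 reads with the middle V genes, which lie 1563.14 to 2205.89 kb away. The ratio of these medians was 3.31 and 3.08 in resting B libraries, 1.11 and 0.955 in pro-B libraries and 1.82 and 1.97 in MEF. Against the far distal V genes next to the flank, 76.637 to 804.972 kb away, the ratio was 1.32 and 1.70 in resting B libraries, 0.421 and 0.278 in pro-B libraries and 0.808 and 0.753 in MEF. In resting B cells, then, the typical contact across the whole locus was read more often than the typical contact with the nearest V genes, and in the other libraries less often. For both ratios the 3 cell types did not overlap, and each comparison had the smallest exact permutation p that 2 libraries against 2 allow, 0.333. These ratios were chosen after the values had been seen, and primers differ in strength, so the ratios are set side by side across libraries only. Rearranged alleles of resting B cells also lack the DNA between the joined segments, and the effect of this loss on the ratios was not tested.

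Seen from the constant side, resting B cells did not stand above MEF. The median of the end-to-end pairs over that of the constant-side fragments with the far distal V genes was 1.04 and 1.26 in resting B libraries, 0.588 and 0.656 in pro-B libraries and 1.08 and 1.27 in MEF. The low ratio was that of pro-B cells. A like order appeared against the other 103 Igh pairs within the same separations, of which 95 join the constant side to the far distal V genes. The mean log2(reads + 1) of the end-to-end pairs minus that of these other pairs was 0.09 and 0.57 in resting B libraries, -0.74 and -0.30 in pro-B libraries and 0.29 and 0.31 in MEF. Resting B minus pro-B was 0.85 and pro-B minus MEF -0.82 (exact p = 0.333 each), while resting B minus MEF was 0.035 (exact p = 1), and -0.20 without resting B replicate 2.

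Reads between the same 79 fragments and the gene desert on chromosome 5 give the background of ligation between chromosomes. The median of these 1935 pairs was 4 reads in both resting B libraries and 1 read in each pro-B and MEF library. The end-to-end median was thus 29 and 30 times this background in resting B libraries, 20 and 21 times in pro-B libraries and 40 and 73 times in MEF. A divisor of 1 read is within counting error of 0, so the pro-B and MEF ratios only restate their end-to-end medians. The order of these ratios is therefore uncertain. Interchromosomal reads, leaving out 1 pair that alone held 41.2% to 83.2% of them, made up 1.28% and 1.54% of valid pairs in resting B libraries, 0.222% and 1.61% in pro-B libraries and 0.488% and 0.482% in MEF. With that pair included, the log2 ratio of the mean end-to-end pair to the mean desert pair was -0.31 and -0.35 in resting B libraries, -0.24 and -0.51 in pro-B libraries and -1.20 and -0.62 in MEF. Without it the log2 ratio was 1.64 and 1.49 in resting B libraries, 2.22 and 1.15 in pro-B libraries and 2.59 and 2.54 in MEF, and the resting B minus MEF difference was -1.0 in place of 0.58. Resting B cells thus had the highest median background, pro-B replicate 2 held a share of interchromosomal reads like theirs, and the part of this background in the contacts was not tested.

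Resting B cells were then set against pro-B cells pair by pair. With edgeR's quasi-likelihood test over 11940 Igh pairs and Benjamini-Hochberg adjustment, 39 of the 517 end-to-end pairs with enough reads to test (7.54%) were higher in resting B cells, where 2.74% of all tested Igh pairs were. No end-to-end pair was lower, where 5.16% of all tested pairs were. At an unadjusted p under 0.05, 159 were higher and 3 lower (12.7% and 16.8% of all tested pairs). DESeq2's Wald test called 150 higher and 1 lower, where 1303 and 1601 of all 11940 tested pairs were. The median log2 fold was 1.61 over the end-to-end pairs, 1.04 over the 99 other pairs tested at the same separations and 0.01 over all Igh pairs. The fold was above 0 for 429 end-to-end pairs (83.0%), for 69.7% of the other pairs at the same separations and for 50.3% of all tested pairs. Both resting B libraries lay above both pro-B libraries in CPM (reads scaled by library size) for 302 pairs (58.4%, against 33.0% of all tested pairs) and below them for 23 pairs (4.45%, against 29.0%). The 39 calls were 0 without any of MEF replicate 1, MEF replicate 2, resting B replicate 1 or resting B replicate 2, and they were 221 without pro-B replicate 1 and 204 without pro-B replicate 2. Calls over all tested Igh pairs were lost and gained in the same settings. The number of called end-to-end pairs was 0 with only the 4 resting B and pro-B libraries in the fit, as was that over all tested pairs. With each library's own trend over separation removed, 11 were higher and 1 lower, where 305 and 442 of all 11940 tested pairs were. The median log2 fold of the end-to-end pairs was then 0.19, against 0.034 over all tested pairs. That trend rests on the end-to-end pairs themselves at these separations.

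The 39 called pairs are spread over 12 of the 17 fragments of the 5′ flank and 28 fragments of the constant side. The constant region holds 18 of them, the 3′ flank 12, the D-J region 6 and the 3′RR 3. Their median was 238 and 210 reads in resting B libraries, 4 and 3 reads in pro-B libraries and 53 and 92 reads in MEF. In 7 of them a pro-B library had 0 reads. In the 5′ flank REV 851 held the most with 6 called pairs, followed by FOR 850, REV 831 and REV 840 with 5 each, and REV 37 of the constant region held 4.

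The pair with the most reads among the leading calls joined REV 840 of the 5′ flank (117320324 to 117324621) to FOR 31 of the 3′RR (114477117 to 114480873), on the side of the 3′RR next to the constant genes. It had 1427 and 2221 reads in resting B libraries, 112 and 97 reads in pro-B libraries and 421 and 384 reads in MEF. Leading calls were named only where resting B and pro-B libraries did not overlap, so that gap was set by the choice. MEF lay between these cell types. The log2 fold of resting B over pro-B cells was 3.95 ± 0.57 (SE, edgeR, adjusted p = 0.0214), and resting B over MEF was 2.07 ± 0.52, which did not pass (adjusted p = 0.0943). Against the primers' strength and the separation, modelled within each library as described further on, its standardised residual was -1.61 and -2.66 in resting B libraries, 0.12 and -0.70 in pro-B libraries and 0.022 and 0.25 in MEF, so in resting B cells the pair had fewer reads than that model gave.

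REV 840 was also in a called pair with FOR 78 of the D-J region (114659959 to 114662158), which lies on the constant-gene side of the intronic enhancer. The pair had 459 and 405 reads in resting B libraries, 5 and 1 in pro-B libraries and 20 and 41 in MEF. Here too MEF lay between pro-B and resting B cells. The fold over pro-B cells was 6.87 ± 1.08 on the log2 scale (edgeR, adjusted p = 0.0241). Against MEF it was 3.82 ± 0.91 (edgeR, adjusted p = 0.0854), which did not pass. With pro-B counts this low the fitted fold depends on the prior count.

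REV 37, a fragment of 1269 bp in the constant region (114501531 to 114502799), made called pairs with FOR 842 and FOR 825 of the 5′ flank. With FOR 842, 2824.80 kb away, it had 423 and 522 reads in resting B libraries, 11 and 7 in pro-B libraries and 84 and 92 in MEF, a log2 fold over pro-B cells of 5.50 ± 0.80 (edgeR, adjusted p = 0.0214). With FOR 825 it had 215 and 216 reads in resting B libraries, 0 and 2 in pro-B libraries and 58 and 125 in MEF. In both pairs the MEF counts lay between those of the B-lineage cells.

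REV 831 of the 5′ flank (117305833 to 117307899) made called pairs with the 3′ flank and with the constant region. With FOR 38 of the constant region it had 592 and 436 reads in resting B libraries, 33 and 21 in pro-B libraries and 178 and 244 in MEF, a log2 fold over pro-B cells of 4.02 ± 0.67 (edgeR, adjusted p = 0.0273). With FOR 3 of the 3′ flank it had 609 and 403 reads in resting B libraries, 6 and 1 in pro-B libraries and 76 and 52 in MEF. REV 831 had 318 and 426 reads with FOR 9 of the 3′ flank in resting B libraries, 5 and 1 in pro-B libraries and 90 and 212 in MEF. With FOR 3 and FOR 9 the pro-B libraries held 1 to 6 reads, and in all of these pairs MEF lay between pro-B and resting B cells.

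REV 851, the outermost fragment (117346620 to 117350186), made called pairs in the same regions. With FOR 36 of the constant region it had 253 and 211 reads in resting B libraries, 2 and 1 in pro-B libraries and 41 and 80 in MEF. With FOR 14 of the 3′ flank it had 315 and 145 reads in resting B libraries, 2 and 2 in pro-B libraries and 54 and 46 in MEF. The outermost pair of the design, FOR 850 with REV 1 at 3005.61 kb, had 323 and 514 reads in resting B libraries, 3 and 4 in pro-B libraries and 77 and 112 in MEF. In each of these pairs MEF lay between pro-B and resting B cells, whose libraries do not overlap by the rule of choice.

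The 3 pairs with the lowest unadjusted p in the other direction did not pass. The first of them, FOR 23 of the 3′RR with REV 810, had 3 and 2 reads in resting B libraries, 44 and 74 in pro-B libraries and 14 and 48 in MEF (edgeR, adjusted p = 0.0578). FOR 86 of the D-J region with REV 827 had 4 and 4 reads in resting B libraries, 43 and 22 in pro-B libraries and 11 and 18 in MEF. Resting B cells were lowest in both.

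**Figure D3:**
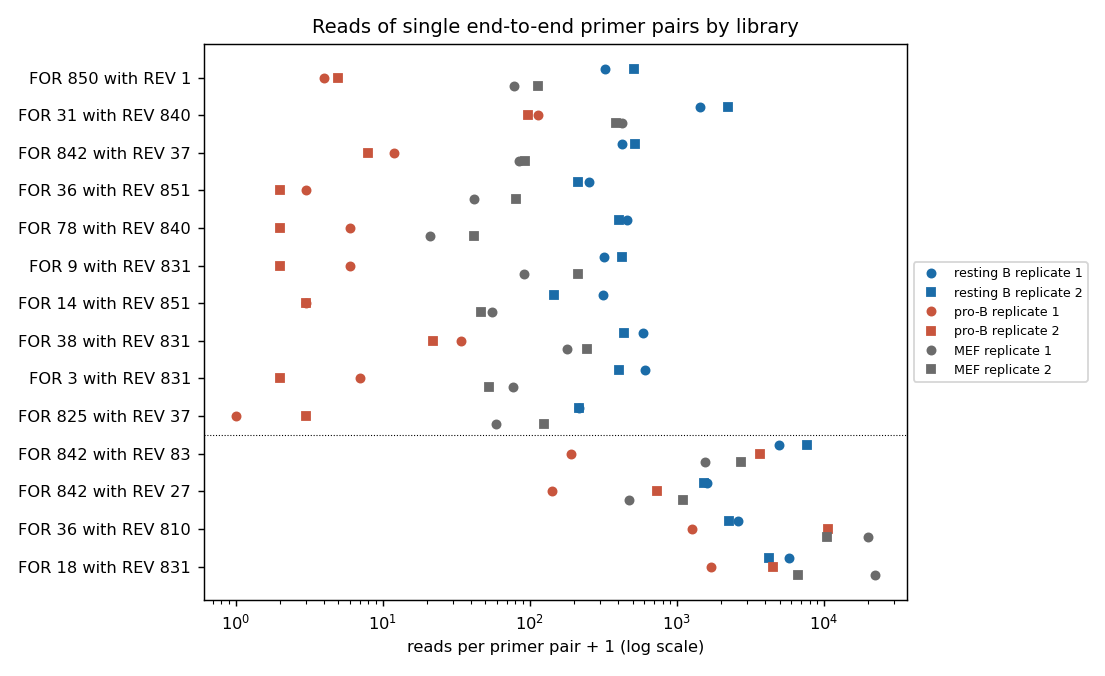
Reads plus 1 (log axis) of single end-to-end pairs by library. Above the dotted line are the 10 pairs with the lowest p among those higher in resting B than in pro-B cells. They were chosen with no overlap between resting B and pro-B libraries. Below the line are the 4 pairs with the most reads in the 4 constant-side regions. In the upper 10 pairs both pro-B points lie left of the MEF points and the resting B points right of them; in the bottom pairs, FOR 36 with REV 810 and FOR 18 with REV 831, MEF replicate 1 has the highest counts.

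Summed over a whole region, 5′ flank contacts made by the 3′ flank and by the D-J region rose in resting B over pro-B cells, 2 of the 4 region sums. In this comparison 20% of the 55 pairs of regions across the locus rose and 21.8% fell by edgeR's adjusted p. The sum with the 3′ flank was 1269 and 1409 CPM in resting B libraries, 299 and 664 in pro-B libraries and 1688 and 701 in MEF, a log2 fold over pro-B cells of 1.48 ± 0.48 (adjusted p = 0.0372). The sum with the D-J region was 743 and 1017 CPM in resting B libraries, 175 and 526 in pro-B libraries and 339 and 346 in MEF, a log2 fold of 1.33 ± 0.47 (adjusted p = 0.0478). Without MEF replicate 2 the folds were 1.51 and 1.35 (adjusted p = 0.0662 and 0.123), and without resting B replicate 2 they were 1.41 and 1.09 (adjusted p = 0.0536 and 0.153). The D-J sum also missed the threshold without MEF replicate 1 (1.32, adjusted p = 0.0990). Without pro-B replicate 1 the folds were 1.00 and 0.73 and passed (adjusted p = 0.00101 and 0.0147), and leaving out pro-B replicate 2 gave 2.15 and 2.32. Both calls were also lost when the gene desert set the library sizes (1.56 and 1.36), with only the 4 resting B and pro-B libraries in the fit (1.51 and 1.35), and when the trend over separation was removed (-0.10 and 0.035).

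The sums with the constant region and with the 3′RR did not pass. With the constant region there were 1832 and 2026 CPM in resting B libraries, 493 and 1312 in pro-B libraries and 1975 and 1166 in MEF, a log2 fold of 1.10 ± 0.45 over pro-B cells (edgeR, adjusted p = 0.0653). With the 3′RR there were 606 and 842 CPM in resting B libraries, 212 and 486 in pro-B libraries and 369 and 349 in MEF, a log2 fold of 1.05 ± 0.40 (adjusted p = 0.0560). Over all 527 pairs as 1 sum the fold was 1.23 ± 0.51 (adjusted p = 0.0867 over 28 coarser region pairs, of which 10.7% rose and 42.9% fell). The typical pair gave another order of the regions. The median log2 fold per pair over pro-B cells was 2.57 with the 3′ flank, 1.86 with the constant region, 0.97 with the D-J region and 0.45 with the 3′RR. The 3′RR thus had the smallest median of the 4 regions.

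**Figure D4:**
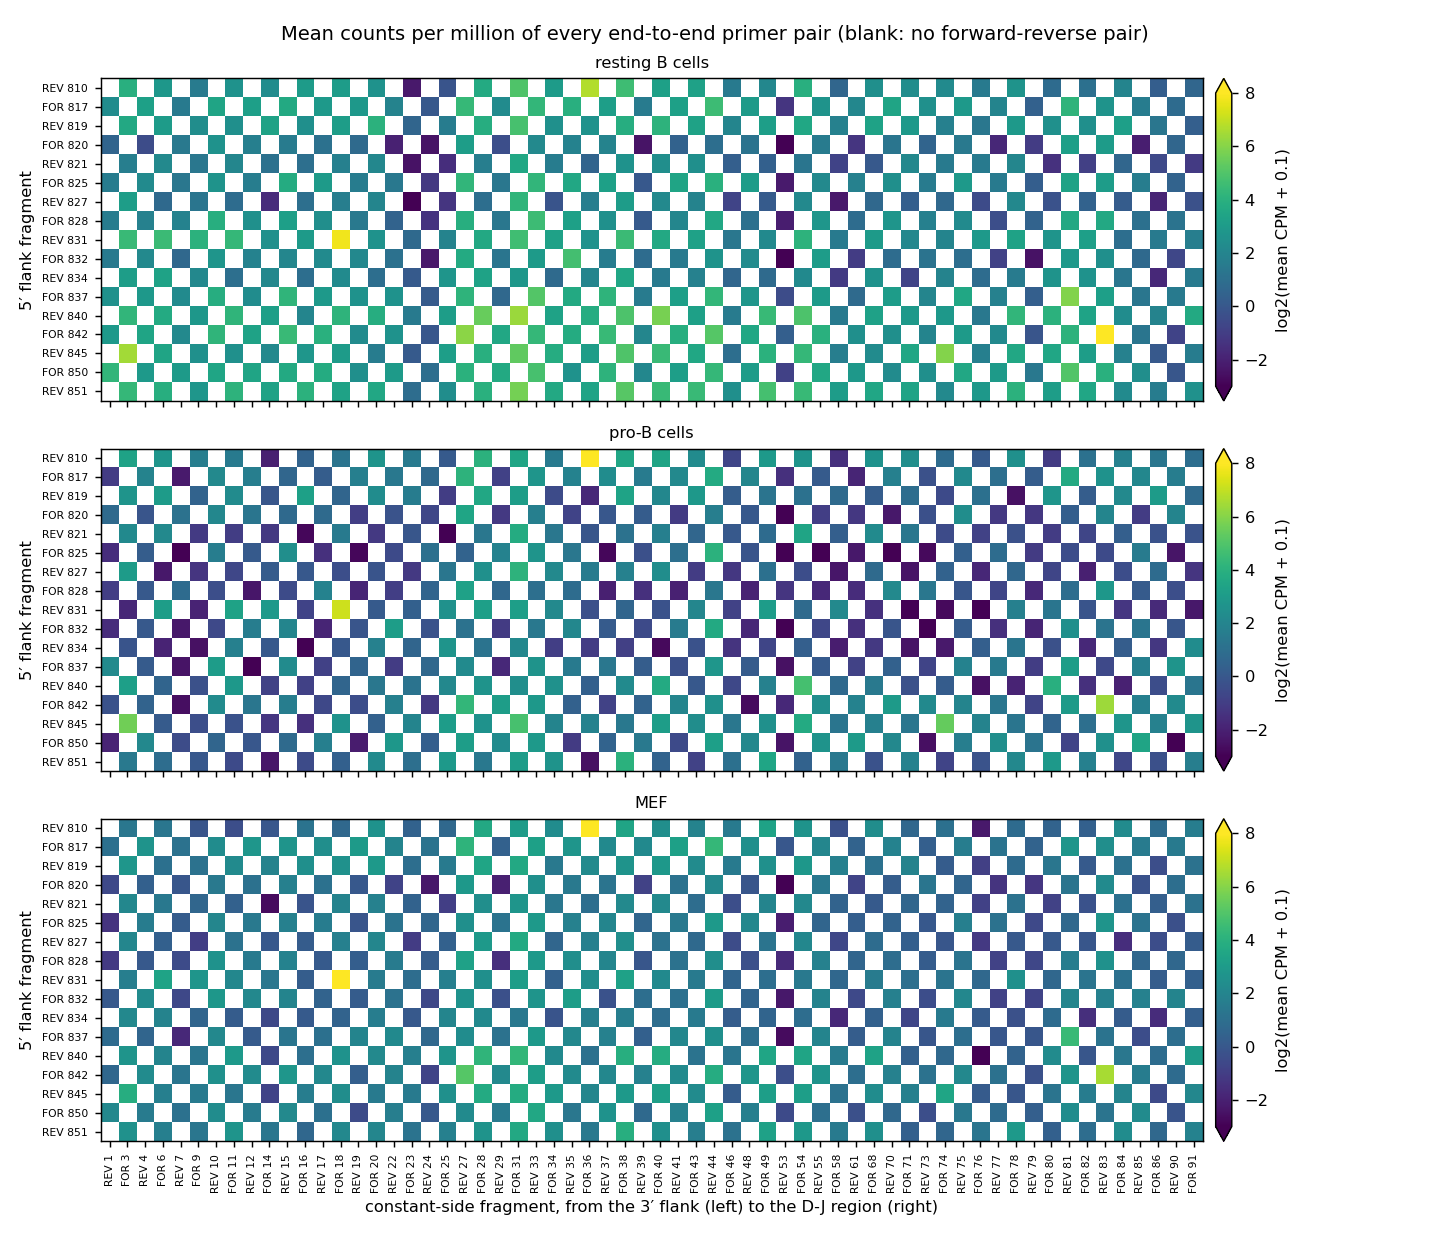
Mean scaled CPM of every end-to-end pair as log2(mean CPM + 0.1), in resting B cells, pro-B cells and MEF; rows are 5′ flank fragments, columns constant-side fragments, and blank cells join primers of the same kind. The resting B map is brighter over most of its area than the pro-B map, which has many dark cells, and FOR 18 with REV 831 and FOR 36 with REV 810 are bright in all 3 panels.

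Against MEF, the typical end-to-end pair was higher in resting B cells, and few differences passed a test for single pairs or regions. No end-to-end pair passed edgeR's adjusted test in either direction, where 0.369% of all tested Igh pairs were higher and 0.385% lower. At an unadjusted p under 0.05 there were 42 higher and 5 lower, against 8.74% and 12.2% of all tested pairs. DESeq2's Wald test called 32 of 517 end-to-end pairs higher and 2 lower, where 746 and 882 of all 11940 tested pairs were. Both resting B libraries lay above both MEF libraries for 303 of 517 pairs (33.9% of all tested pairs did so) and below them for 39 (35.9%). The median log2 fold was 1.10 over the end-to-end pairs, 1.30 over the other pairs at the same separations and -0.02 over all Igh pairs. The fold was above 0 for 422 end-to-end pairs (81.6%), for 80.8% of the other pairs at the same separations and for 49.6% of all tested pairs. Without pro-B replicate 1 or pro-B replicate 2, which enter through the shared estimate of the spread, the median log2 fold was 1.12 and 1.10. Over all tested pairs it was -0.0045 and -0.0066. More pairs were then called, both among the end-to-end pairs and among all tested pairs.

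Of the 4 region sums, that with the D-J region rose in resting B cells over MEF, by 1.36 ± 0.47 on the log2 scale (edgeR, adjusted p = 0.0403). In this comparison 32.7% of all region pairs rose and 16.4% fell. The call was lost without MEF replicate 1, MEF replicate 2 or resting B replicate 2, with folds of 1.34, 1.37 and 1.12 and adjusted p-values of 0.204, 0.219 and 0.146. It was also lost with gene desert reads as library size (1.81, adjusted p = 0.0703) and with the trend over separation removed (0.44, adjusted p = 0.370). The 3′RR sum had a log2 fold of 1.01 ± 0.40 (adjusted p = 0.0645). The folds of the constant region and the 3′ flank were 0.30 and 0.16, and each of these sums held 1 of the 2 end-to-end pairs with the most reads. With those 2 pairs removed, an alternative added after seeing the data, the folds were 1.20 (adjusted p = 0.0142) and 1.42 (adjusted p = 0.0129). The sum over all 527 pairs had a log2 fold of 0.49 (adjusted p = 0.399, where 3.57% of the coarser region pairs rose), and 1.25 with the 2 pairs removed (adjusted p = 0.0633).

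The 2 pairs joined FOR 18 of the 3′ flank (114404465 to 114408145) to REV 831 and FOR 36 of the constant region (114496829 to 114501530) to REV 810. FOR 18 with REV 831 had 5798 and 4260 reads in resting B libraries, 1718 and 4516 in pro-B libraries and 22422 and 6640 in MEF. FOR 36 with REV 810 had 2595 and 2278 reads in resting B libraries, 1261 and 10749 in pro-B libraries and 19990 and 10483 in MEF. Together they held 7.91% and 5.72% of the end-to-end reads in resting B libraries, 14.4% and 21.7% in pro-B libraries and 56.7% and 24.4% in MEF. MEF replicate 1 was far above MEF replicate 2 in both. Their resting B over MEF log2 folds of -1.82 ± 0.76 and -2.86 ± 0.91 did not pass (edgeR, adjusted p = 0.234 and 0.145).

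A model of each library with a trend over separation and a strength for each primer singles out pairs above both. Where the standardised residual reached 2 in both libraries of a cell type, 5 end-to-end pairs stood out in resting B cells, 2 in pro-B cells and 3 in MEF, where 0.773%, 0.465% and 0.449% of all Igh pairs over 50 kb apart did. The 2 pairs with the most reads stood out in all 3 cell types. FOR 842 with REV 83 of the D-J region (114667887 to 114670119) did so in resting B cells and MEF, with 4923 and 7665 reads in resting B libraries, 190 and 3679 in pro-B libraries and 1551 and 2721 in MEF. REV 83 had 37974 and 40665 reads with the gene desert in resting B libraries, 2423 and 23288 in pro-B libraries and 10488 and 7484 in MEF, so it was also well read between chromosomes. FOR 3 with REV 845 stood out in resting B cells with 1633 and 2352 reads there, and had residuals of 0.77 and 2.28 in pro-B cells and 0.66 and 0.81 in MEF. FOR 74 with REV 845 had residuals of 2.83 and 3.19 in resting B libraries, 0.24 and 2.83 in pro-B libraries and 0.99 and 0.48 in MEF. Since pro-B replicate 2 was above 2 in both pairs, they are not called particular to resting B cells.

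Fragments were next described one by one, with the reads of a fragment summed over the other end of the locus. Of the 79 fragments, 40 rose in resting B over pro-B cells and none fell, where 13.1% of the 1569 fragment sums across the locus rose and 24.1% fell by edgeR's adjusted p. Against MEF 21 rose and none fell, where 10.3% rose and 16.5% fell. At an unadjusted p under 0.05 there were 45 higher and 0 lower than pro-B cells (18% and 30% of all fragment sums) and 42 higher and 1 lower than MEF (17.9% and 26%). DESeq2 called 49 higher and 0 lower than pro-B cells, where 294 and 446 of the 1569 fragment sums were. It called 44 higher and 1 lower than MEF, where 286 and 342 were. Over pro-B cells 25 rose without MEF replicate 1 and 25 without MEF replicate 2, 67 without pro-B replicate 2, 6 without resting B replicate 1 and 0 without resting B replicate 2. Over MEF 57 rose without pro-B replicate 1 and 57 without pro-B replicate 2, and 0 without any of MEF replicate 1, MEF replicate 2, resting B replicate 1 or resting B replicate 2. Over all fragment sums the number that rose went up or down in the same settings. With gene desert reads as library size 10 rose over pro-B cells and 10 over MEF, where 71 and 106 of all fragment sums did. With the trend over separation removed 3 rose and 8 fell over pro-B cells, where 193 and 340 of all did. Over MEF 0 rose and 4 fell, where 152 and 206 of all did. Every pair enters the sums of both its fragments, so the ends are 2 views of the same reads.

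In the 5′ flank 8 of 17 fragments rose over pro-B cells, with a median log2 fold of 1.15 over all 17, and 4 rose over MEF. The 4 were FOR 828, FOR 837, REV 840 and REV 851. REV 840 had 10602 and 12302 reads with the constant side in resting B libraries, 1400 and 3884 in pro-B libraries and 3239 and 4490 in MEF, a log2 fold of 2.05 ± 0.41 over pro-B cells and 1.52 ± 0.40 over MEF (edgeR, adjusted p = 0.0100 and 0.0335). REV 851 had 9964 and 9456 reads in resting B libraries, 1052 and 3276 in pro-B libraries and 2352 and 3819 in MEF, with folds of 2.10 ± 0.42 and 1.63 ± 0.41. Resting B cells were above all other libraries in both. FOR 837 had 7537 and 6556 reads in resting B libraries, 912 and 2423 in pro-B libraries and 1861 and 2350 in MEF, with folds of 2.00 ± 0.37 and 1.67 ± 0.37. FOR 828 had 4107 and 3978 reads in resting B libraries, 717 and 1295 in pro-B libraries and 1291 and 2265 in MEF, and here too resting B cells were above all other libraries. REV 810 and REV 831, which carry the pairs with the most reads, had log2 folds against MEF of -1.46 and -0.79 that did not pass. All 31 tested pairs of REV 840 had a fold above 0 over pro-B cells, against 58.1% of those of REV 810, the innermost fragment.

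On the constant side 32 of 62 fragments rose over pro-B cells and 17 over MEF. Over pro-B cells these were 12 of 16 in the 3′ flank, 14 of 25 in the constant region, 4 of 13 in the D-J region and 2 of 8 in the 3′RR. REV 37 of the constant region had 2329 and 1644 reads in resting B libraries, 186 and 283 in pro-B libraries and 495 and 800 in MEF, a log2 fold of 2.94 ± 0.31 over pro-B cells and 1.58 ± 0.29 over MEF (edgeR, adjusted p = 0.00256 and 0.0136). It had the lowest p of the 79 over pro-B cells. REV 35, on the side towards the 3′RR, had 2003 and 2472 reads in resting B libraries, 240 and 472 in pro-B libraries and 640 and 1052 in MEF, a fold of 2.55 ± 0.33 over pro-B cells. Between them lies FOR 36, which carries 1 of the 2 pairs with the most reads and had a fold of -0.77 over pro-B cells that did not pass. In the 3′ flank, REV 17 and FOR 9 had folds of 2.53 ± 0.36 and 2.78 ± 0.50 over pro-B cells. FOR 14 of the 3′ flank, with 2.08 ± 0.36, had the lowest p over MEF (edgeR, adjusted p = 0.0118).

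In the D-J region the fragment placed at the intronic enhancer, REV 81 (114664824 to 114667095), had 3231 and 4261 reads with the 5′ flank in resting B libraries, 804 and 751 in pro-B libraries and 1026 and 1101 in MEF. Both resting B libraries lay well above the other 4. In CPM the fragment had 135 and 197 in resting B libraries, 45.9 and 31.9 in pro-B libraries and 60 and 40.2 in MEF, so that pro-B cells and MEF overlapped. The fragment rose by 2.10 ± 0.35 on the log2 scale over pro-B cells and by 1.73 ± 0.35 over MEF (edgeR, adjusted p = 0.00661 and 0.0165). The next fragment, FOR 82, had 1028 and 1424 reads in resting B libraries, 126 and 319 in pro-B libraries and 175 and 373 in MEF, with folds of 2.39 ± 0.45 and 2.19 ± 0.45. Farther towards the V genes, REV 85, FOR 86, REV 90 and FOR 91 had folds between -0.80 and 0.52 over pro-B cells, and none passed.

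The 3′RR was divided. REV 27 had 3797 and 4300 reads with the 5′ flank in resting B libraries, 1235 and 1860 in pro-B libraries and 1559 and 2409 in MEF, with log2 folds of 1.26 ± 0.25 over pro-B cells and 1.00 ± 0.25 over MEF (edgeR, adjusted p = 0.00988 and 0.0281). FOR 28 had 2753 and 3098 reads in resting B libraries, 1091 and 1494 in pro-B libraries and 1393 and 2349 in MEF, and passed over pro-B cells (1.04 ± 0.24, adjusted p = 0.0175). FOR 31 had 5299 and 7910 reads in resting B libraries, 627 and 4079 in pro-B libraries and 1845 and 2326 in MEF, and did not pass (1.49 ± 0.67 over pro-B cells, adjusted p = 0.121). The neighbours FOR 23 and REV 24 had folds of the other sign. FOR 23 (114441222 to 114447060) had 239 and 207 reads in resting B libraries, 183 and 579 in pro-B libraries and 267 and 441 in MEF, a fold of -0.84 over pro-B cells that did not pass (adjusted p = 0.209). REV 24 had a fold of -0.74 (adjusted p = 0.314).

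Reads of these fragments with the gene desert moved the same way in part. Both resting B libraries had more desert reads than both MEF libraries for 20 of the 21 fragments that rose over MEF and for 52 of the other 58. They had more than both pro-B libraries for 24 of the 40 fragments that rose over pro-B cells and for 17 of the other 39. REV 37 had 1638 and 1811 desert reads in resting B libraries, 92 and 1652 in pro-B libraries and 456 and 744 in MEF, so that pro-B replicate 2 had about the desert reads of resting B cells beside its 283 reads with the 5′ flank. The part of this background in the fragment differences was not tested.

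**Figure D5:**
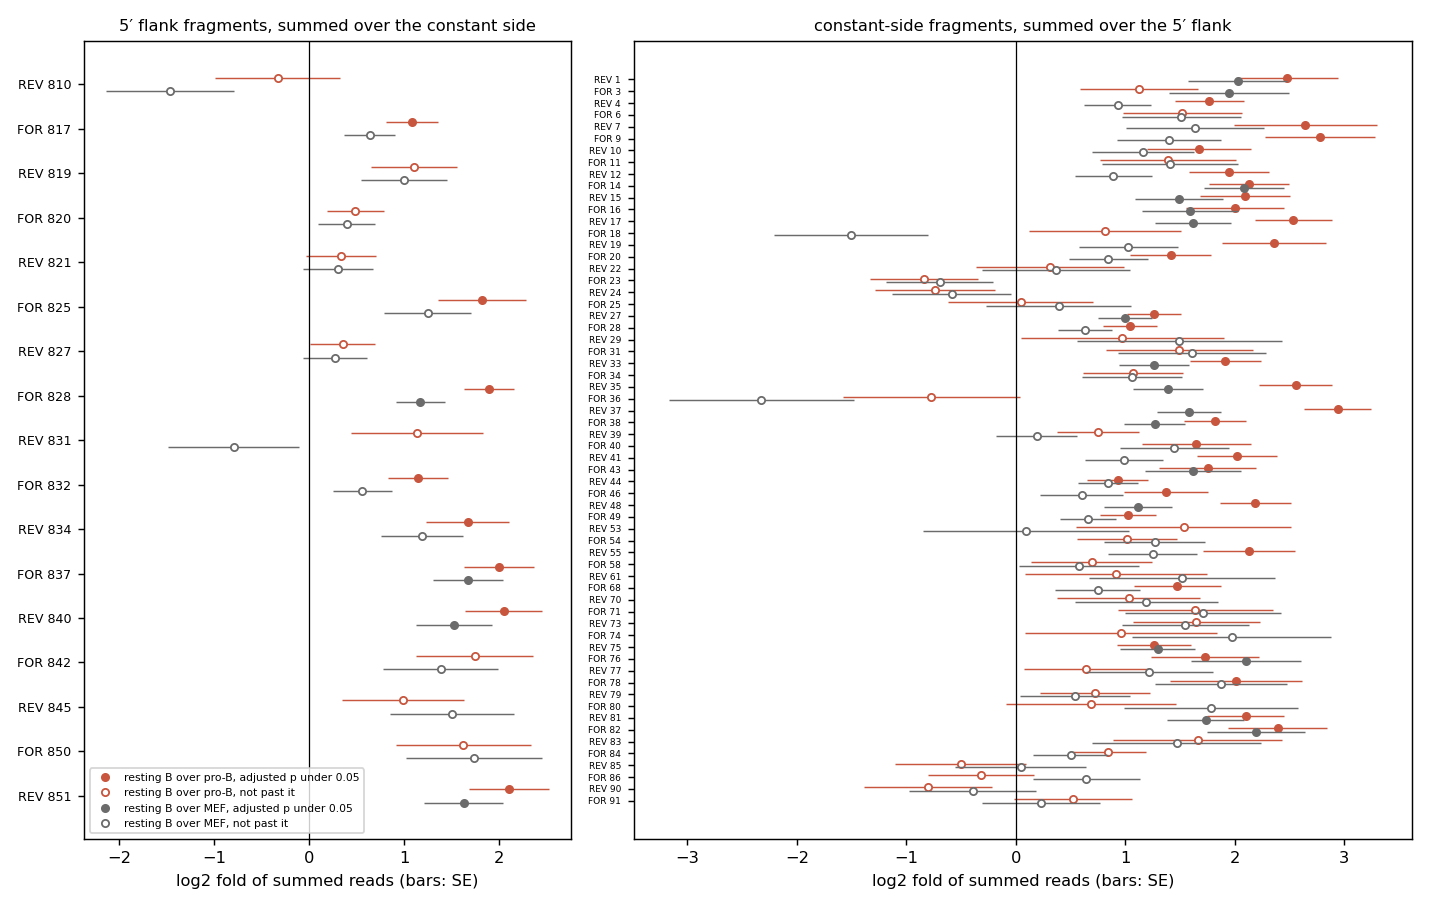
Log2 folds of summed reads for the 17 fragments of the 5′ flank (left) and the 62 of the constant side in genome order (right), with SE bars; filled points passed edgeR's adjusted test at 0.05. Most points lie right of 0, with FOR 18 and REV 831 left of 0 against MEF, REV 85 and FOR 86 left of 0 against pro-B cells, and FOR 23, REV 24, FOR 36, REV 90 and REV 810 left of 0 in both comparisons.

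Pro-B cells were set against MEF to ask how far the germline locus is folded end to end in B-cell progenitors. The typical end-to-end pair was lower in pro-B cells, with a median log2 fold of -0.62 over the 517 tested pairs, 0.15 over the other pairs at the same separations and 0.03 over all Igh pairs. No end-to-end pair passed edgeR's adjusted test in either direction, nor did any of the 11940 tested pairs (0% and 0%). At an unadjusted p under 0.05, 1 end-to-end pair was higher and 66 were lower, where 4.99% and 4.17% of all tested pairs were. DESeq2 called 0 higher and 27 lower, where 160 and 135 of all 11940 tested pairs were. Both pro-B libraries lay below both MEF libraries for 186 pairs (36.0%, against 22.8% of all tested pairs) and above them for 20 (3.87%, against 19.3%).

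By region, the median log2 fold per pair of pro-B over MEF was -1.15 with the 3′ flank, -0.82 with the constant region, -0.28 with the D-J region and 0.02 with the 3′RR. No region sum passed edgeR's adjusted test, where 9.09% of all region pairs rose and 0% fell. At an unadjusted p under 0.05 the sum with the 3′ flank was lower (3.64% of all region pairs), and DESeq2 called it (-1.28, adjusted p = 0.0146). The folds were -1.31 ± 0.48 with the 3′ flank (edgeR, adjusted p = 0.0957), -0.80 with the constant region, 0.03 with the D-J region and -0.04 with the 3′RR. With the 2 end-to-end pairs with the most reads removed, FOR 18 with REV 831 and FOR 36 with REV 810, the folds were -0.31 with the 3′ flank (edgeR, adjusted p = 0.770) and -0.32 with the constant region (adjusted p = 0.686). Without resting B replicate 1 or resting B replicate 2 the 3′ flank fold of -1.31 passed (adjusted p = 0.0400 and 0.0398), without MEF replicate 1 it was -0.55 (adjusted p = 0.616), and without pro-B replicate 1 or pro-B replicate 2 it was -0.84 and -2.0 and passed (adjusted p = 0.00664 and 6.99e-09). The pair with the lowest p was FOR 850 with REV 1 (-4.61 ± 0.78, adjusted p = 0.264). Among those higher, FOR 3 with REV 810 had 124 and 299 reads in pro-B libraries and 24 and 96 in MEF (2.00 ± 0.72, adjusted p = 0.490). None of the 79 fragment sums passed by edgeR (0% of all fragment sums did), and 12 were lower at an unadjusted p under 0.05 and none higher (4.4% and 10.2% of all). DESeq2 called 2 lower, where 19 of all 1569 fragment sums were. Of the 5′ flank fragments 15 of 17 had a fold below 0, and of the constant-side fragments 42 of 62, where 39.9% of all fragment sums did.

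The pro-B result depends on the pro-B library. Without either pro-B library calls appeared among the end-to-end pairs and among all tested pairs. The median log2 fold per pair over MEF was -1.21 without pro-B replicate 1 (-0.18 over all tested pairs). Without pro-B replicate 2 it was -1.06 (-0.07 over all). The fold was above 0 for 200 of 510 end-to-end pairs without pro-B replicate 1 and 93 of 514 without pro-B replicate 2. For the fragment sums the median was 0.053 without pro-B replicate 1 (0.17 over all fragment sums). It was -1.10 without pro-B replicate 2 (-0.05 over all). The fold with the D-J region was 0.62 without pro-B replicate 1 and -0.97 without pro-B replicate 2, both past the threshold in opposite directions (edgeR, adjusted p = 0.0364 and 0.00216). In these fits the lone pro-B library is assumed to vary like the other cell types.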

How the data were processed

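The authors deposited 1 file of raw counts per library. Per the file headers each count is the number of valid read pairs of a forward-reverse primer pair, with reads of 42 bases from 6 lanes of 1 flowcell. Pairs not listed were read as 0. Per the submitters' processing notes, Novoalign and mm9 were used, with the aligner's version not given in the sources read here. The headers record no correction of the deposited counts for separation, primers or depth. Libraries held 20580457 to 24191175 valid pairs, and without molecular identifiers the 95% intervals and the floor of 3 counts cover counting error only.

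Fragments were placed by the coordinates in the primer names, in mm9. Main tests used edgeR 4.0.16 (R 4.3.3) quasi-likelihood fits of the 6 libraries together on cell type alone, TMM scaling over pairs that reached 10 reads in 2 or more libraries, and Benjamini-Hochberg adjustment over 11940 Igh pairs, 55 region pairs, 28 coarser region pairs or 1569 fragment sums, with 0.05 as the threshold. SE was taken as log2 fold over the root of F. Folds are the tested cell type over the one named after it. Single values per library were compared by exact two-sided permutation. The edgeR fits were tested on simulated data. Residuals came from quasi-Poisson fits, 1 for each library, on primer effects and a spline (4 degrees of freedom) of log separation; on simulated data the limit of 2 also passed pairs that had not been raised. Alternatives used DESeq2 1.42.0, limma 3.58.1, other library sizes, filters, a lowess trend over separation (span 0.3), a replicate block and left-out libraries, with Python (numpy 2.4.6, pandas 2.3.3, scipy 1.17.1, matplotlib 3.10.9).

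The members, region lists and tests were chosen with earlier results of these data known. Named pairs are, per comparison and direction, up to 10 called pairs in order of p with non-overlapping libraries, or the first 3 by unadjusted p, plus the pair with the most reads and the most widely separated pair of each region. Named fragments are those of the 5′ flank, the first by p on the constant side, and those at the intronic enhancer and 3′RR; the neighbours REV 35, FOR 82, REV 85, FOR 86, REV 90 and FOR 91 were chosen after their values were seen. Libraries with the same replicate number did not deviate together, with correlations of 0.087 between resting B and pro-B cells, 0.013 between resting B cells and MEF and -0.026 between pro-B cells and MEF, so they were not paired. No sequence is printed, since no genome of this build and no primer sequence was used here.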

Additional observations from a re-analysis of the deposited data

Results flagged for a closer look

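One primer pair outside the comparisons held much of the reads between chromosomes. It joined FOR 817 of the 5′ flank (chromosome 12, 117278387 to 117288604, mm9) to GD REV 31 of the gene desert (chromosome 5, 133313225 to 133314343). It had 357345 and 386197 reads in resting B libraries, 73138 and 251736 in pro-B libraries and 585423 and 352634 in MEF, which was 41.2% to 83.2% of all reads between the locus and the gene desert. The end-to-end pair with the most reads had 22422 reads, in MEF replicate 1.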

How the results depend on the processing

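Of the results that answer a comparison, 359 of their values under an alternative kept direction and side of the threshold or stayed within the spread, 60 counts or values moved, 43 passed newly, 15 lost their call and 27 changed sign. The log2 fold, in the order 3′RR, constant region, 3′ flank and D-J region, follows for each setting that changed a call or sign; the causes were not tested. The settings without the 2 pairs, without the desert pair, within shared separations and from sums of reads were chosen after seeing the data.

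For resting B over pro-B cells, removing the trend over separation gave -0.46, -0.29, -0.10 and 0.035 and -0.21 for the whole sum. Gene desert reads as library size gave 1.56 (3′ flank, adjusted p = 0.174) and 1.36 (D-J, 0.258), and fitting 4 libraries gave 1.51 (0.0620) and 1.35 (0.121), all without a call. Calls were gained by the 3′RR with DESeq2's size factors or Wald test (1.10 each), by limma with each pair counted once (0.62) and without the 2 pairs with the most reads (1.05), and by the constant region with total Igh reads (1.27), DESeq2's size factors or Wald test (1.14 each), limma (1.34) and without the pair or the 2 pairs with the most reads (1.51). The whole sum passed with total Igh reads (1.40), DESeq2 (1.27), limma (1.22) and without 1 or 2 pairs (1.39 and 1.44).

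For resting B over MEF, removing the trend gave -0.040, -0.68, -0.93 and 0.44 and -0.52 for the whole sum, and gene desert reads gave 1.81 for the D-J region without a call. The 3′RR passed with DESeq2's size factors or Wald test (1.08 each) and with 4 libraries (0.98). Limma gave 0.77 (constant region), 1.02 (3′ flank) and 0.77 (whole sum), and leaving out the pairs with the most reads gave 1.20 (constant region) and 1.42 (3′ flank), all passing. For pro-B over MEF, the 3′RR fold was 0.35 with gene desert reads, 0.42 without the trend and 0.061 with 4 libraries; limma gave -0.57 (constant region), -0.60 (3′ flank), both passing, and -0.17 (D-J); DESeq2 gave -1.28 (3′ flank). Without the 2 pairs with the most reads the pro-B over MEF folds were -0.31 (3′ flank), -0.32 (constant region) and -0.19 (whole sum), none passing.

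With the replicate block, 8 pairs were higher in resting B than in pro-B cells in place of 39. Over all tested Igh pairs the number was 67 in place of 327. The 3′RR passed over pro-B cells (1.12, adjusted p = 0.0254) and MEF (0.96, 0.0426), the constant region passed over pro-B cells (1.15, 0.0446), and the D-J fold of pro-B over MEF was -0.14. The libraries share only a number, and the block changed no other call of a region sum.

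Called pairs by DESeq2 were 150 higher and 1 lower (resting B over pro-B), 32 and 2 (resting B over MEF) and 27 lower (pro-B over MEF). Over all 11940 tested pairs these were 1303 and 1601, 746 and 882, and 135 lower. Removing the trend left 11 higher and 1 lower over pro-B cells (305 and 442 of all). With 4 libraries 0 were higher over pro-B cells (0 of all), and 107 higher and 5 lower over MEF (1618 and 1677 of all 11584). Fragments that rose over pro-B cells were 10 with gene desert reads (71 of all 1569 fragment sums) and 25 with 4 libraries (131 of 1566). Without the trend 3 rose (193 of all) and 8 fell (340). Over MEF the fragments that rose were 10 with gene desert reads (106 of all) and 44 by DESeq2 (286). They were 50 by limma (320 of 1575), 57 with 4 libraries (399 of 1568) and 0 without the trend (152). Those that fell were 1 by DESeq2 (342 of all), 2 with 4 libraries (511), 4 without the trend (206) and 1 with total Igh reads (154). For pro-B over MEF 1 fell with total Igh reads (16 of all) and 2 by DESeq2 (19). A residual of at least 3 left 3 pairs in resting B cells.

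Set against other pairs at the same separations, resting B minus MEF was -0.023 within shared separations and -0.41 from sums of reads. Over the desert background, resting B minus MEF was -0.87 from medians and -1.0 without the desert pair with the most reads. Pro-B minus MEF was -1.40 and -0.88, and resting B minus pro-B was -0.12 without that pair. The values from medians rest on a desert median of 1 read in pro-B and MEF libraries.

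With 1 library left out, ranges were as follows. Share differences ran from 0.242 to 0.480 (resting B minus pro-B), 0.222 to 0.268 (resting B minus MEF) and -0.235 to 0.0030 (pro-B minus MEF). In the same order, the differences at equal separations ran from 0.61 to 1.09, -0.20 to 0.27 and -1.03 to -0.60, and those over background from -0.091 to 0.18, 0.29 to 0.87 and 0.25 to 0.83. For resting B over pro-B cells, higher pairs ran from 0 to 221 and lower from 0 to 15, higher fragments from 0 to 67 and lower from 0 to 4, and folds from 0.56 to 1.76 (3′RR), 0.54 to 1.96 (constant region), 1.00 to 2.15 (3′ flank), 0.73 to 2.32 (D-J) and 0.69 to 2.04 (whole sum). For resting B over MEF, higher pairs ran from 0 to 106 and lower from 0 to 5, higher fragments from 0 to 57 and lower from 0 to 2, and folds from 0.76 to 1.23, -0.036 to 0.72, -0.34 to 0.93, 1.12 to 1.57 and 0.15 to 0.92. For pro-B over MEF, higher pairs ran from 0 to 37 and lower from 0 to 149, higher fragments from 0 to 8 and lower from 0 to 32, and folds from -0.76 to 0.44, -1.67 to -0.26, -2.0 to -0.55, -0.97 to 0.62 and -1.55 to -0.21. Pairs past the residual limit ran from 5 to 6 in resting B cells, 2 to 5 in pro-B cells and 3 to 4 in MEF. Of 150 values for the named pairs, 54 lost their call and none changed sign.

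Limits are 2 libraries per cell type, low counts in pro-B cells, 2 pairs that dominate MEF sums and a background that differs between libraries. The libraries were called biological replicates, with no further detail on animals or cultures.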

Other observations

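By the median pair, the 5′ flank fragments in resting B cells met the proximal and near distal V genes at lower levels than the constant side. Their median pair with the proximal V genes, 2173.83 to 2529.19 kb away, had 38 and 50 reads in resting B libraries, 22 and 29 in pro-B libraries and 30 and 54 in MEF. With the near distal V genes it had 50 and 49.5 reads in resting B libraries, 26 and 28.5 in pro-B libraries and 31 and 48.5 in MEF. With the stretch between the V genes and the D-J region it had 35 and 28 reads in resting B libraries, 15 and 20 in pro-B libraries and 27 and 41 in MEF. Sums gave another order for the proximal V genes, whose 161 pairs held 48404 and 56151 reads in resting B libraries. The 527 end-to-end pairs held 106157 and 114380 reads there, which was fewer per pair. Primers differ in strength, so levels with different partners are not strictly comparable. The constant side fragments among themselves had a median of 825 and 721 reads in resting B libraries, 206 and 325 in pro-B libraries and 187 and 340 in MEF, and those of the 5′ flank among themselves had 2359.5 and 1916 reads in resting B libraries, 1376 and 1150 in pro-B libraries and 1525.5 and 1965.5 in MEF. Resting B cells did not overlap the other cell types for the constant side, and overlapped MEF for the 5′ flank.

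Within the 5′ flank the fragments differed in how many of their pairs lay above 0 on the log2 scale of resting B over MEF. The share was 96.8% for FOR 850 and 93.5% for REV 851, REV 819, FOR 837 and FOR 842, against 48.3% for REV 827, 53.3% for REV 821 and 55.2% for FOR 820. All end-to-end pairs together had 81.6%, the other pairs at the same separations 80.8% and all tested Igh pairs 49.6%.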
